A study of Mus musculus with 20 samples.

Results

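The transcripts described here are those of the hypoxia-inducible factor (HIF) system in mouse liver, 10 genes chosen by their role: the alpha subunits Epas1, Hif1a and Hif3a, their partner Arnt, the prolyl hydroxylases Egln1, Egln2 and Egln3, and the target genes Vegfa, Bnip3 and Ankrd37. The count table listed 54532 genes, 12289 of them reached a normalised read count of 2 CPM (counts scaled to library size) in at least 3 mice, and 8 of the 10 HIF genes were among those 12289. Hif3a and Ankrd37 stayed below that level. These 10 genes and the pathway lists below were chosen with earlier results of these data known. Liver was taken from 20 male C57BL/6 mice, 5 in each of 4 groups. Every mouse, the sham mice on chow included, was first made obese by 12 weeks of high-fat diet (HFD), then had Roux-en-Y gastric bypass (RYGB) or a sham operation, and ate chow or HFD for 8 weeks after it. The sham groups are called Sham Chow and Sham HFD, and the bypass groups RYGB Chow and RYGB HFD; no age was given in the sources used here. Sham HFD mice weighed the most according to the study, so body weight and group cannot be told apart in any comparison with Sham HFD.

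HIF is a transcription factor made of an oxygen-sensitive alpha subunit and the stable beta subunit ARNT. In well-oxygenated cells the EGLN enzymes, which need oxygen, iron and 2-oxoglutarate, hydroxylate the alpha subunit so that the VHL ligase complex marks it for breakdown; when oxygen or iron runs short, the alpha subunit persists and switches on genes for glycolysis, vessel growth, red cell production and iron uptake. Much of this control acts on the protein, so transcript levels of the alpha subunits do not measure HIF activity. In liver, HIF-1α, the product of Hif1a, is tied mainly to glycolytic genes, and HIF-2α, the product of Epas1, to erythropoietin, iron handling and lipid storage, with Epas1 also high in endothelial cells.

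Library totals ran from 14604854 to 22537498 counts, and no column of the table repeated another. All 5 hepatocyte markers, all 8 markers of sinusoidal endothelium and all 6 of Kupffer cells passed the filter, and none of the markers listed for 7 cell types was at 0 in all mice. In whole tissue, fewer cells of a type and less RNA per cell cannot be told apart. The 8 tested HIF genes were measured with 268 counts or more in every mouse.

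The 4 HIF genes that moved in an HFD comparison and have an entry in the RefSeq promoter table were Egln1, Egln3, Vegfa and Bnip3, and the bases before their start are shown because such genes can carry the core of the hypoxia response element. All lie on the minus strand of GRCm38.p6 and are printed in the direction of transcription, each at most 250 bases long. Those of Egln1 and Bnip3 run up to the last base before the annotated gene. Those of Egln3 and Vegfa run up to the RefSeq start, which lies upstream of the annotated gene. The stretch before Egln1 is chr8:124949325-124949504, that before Egln3 is chr12:54203875-54204124, that before Vegfa is chr17:46032378-46032627 and that before Bnip3 is chr7:138909520-138909756. Capitals mark the cores ACGTG and GCGTG on either strand, so that CACGT and CACGC also stand in capitals.
Egln1: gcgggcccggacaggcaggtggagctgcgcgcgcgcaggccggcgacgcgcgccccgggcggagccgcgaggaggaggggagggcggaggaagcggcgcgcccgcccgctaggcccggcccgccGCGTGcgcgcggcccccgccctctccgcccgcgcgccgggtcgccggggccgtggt
Egln3: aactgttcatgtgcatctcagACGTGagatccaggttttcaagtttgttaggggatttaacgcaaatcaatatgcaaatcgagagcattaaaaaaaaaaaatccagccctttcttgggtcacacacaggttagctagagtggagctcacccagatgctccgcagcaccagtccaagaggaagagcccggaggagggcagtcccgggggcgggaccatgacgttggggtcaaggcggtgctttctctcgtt
Vegfa: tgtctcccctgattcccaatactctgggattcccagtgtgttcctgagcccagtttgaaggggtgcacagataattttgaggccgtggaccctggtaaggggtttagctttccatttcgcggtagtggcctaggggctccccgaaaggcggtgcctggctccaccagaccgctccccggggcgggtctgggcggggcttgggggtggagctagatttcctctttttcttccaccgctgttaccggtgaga
Bnip3: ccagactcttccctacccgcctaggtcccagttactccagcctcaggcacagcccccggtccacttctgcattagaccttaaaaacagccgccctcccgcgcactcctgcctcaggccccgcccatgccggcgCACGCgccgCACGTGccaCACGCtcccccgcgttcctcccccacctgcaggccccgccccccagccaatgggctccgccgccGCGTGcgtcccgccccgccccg

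Bnip3 held 5 core matches, 2 of which are the forward and reverse reading of the palindrome CACGTG. In the stretch shown Egln1 and Egln3 held 1 each and Vegfa none. The stretch of Egln1 is 180 bases long, and the full 250 bases before its RefSeq start held 2 matches. Of the 32851 promoters of 250 bases in the table, 38.6% held at least 1 core and 16.7% held at least 2, so a match is common. Among the other HIF genes with an entry, the 250 bases before the RefSeq start held 2 matches for Hif3a, 1 for Arnt and 4 for Egln2. The starts that RefSeq gives for Hif1a and Ankrd37 lie inside the loci given here, and the 250 bases before these internal starts, chr12:73907617-73907866 and chr8:45999851-46000100, held 3 and 4 matches. RefSeq also gives a further start inside the locus of Vegfa and of Egln2, and the 250 bases before these held 2 and 1 matches. No entry was found for Epas1. A match describes letters only, and no match in this window says nothing about the factor.

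Epas1, which encodes HIF-2α, was the HIF gene with the largest difference among the 8 tested, and it was higher after RYGB in mice on HFD. It lies at chr17:86753700-86833410 (GRCm38), with 16 exon blocks and 5590 exonic bases. In Sham HFD its level was 163.2, 180.1, 168.0, 183.2 and 208.6 CPM, and in RYGB HFD it was 281.9, 261.0, 318.7, 329.6 and 372.2 CPM. Every RYGB HFD mouse was above every Sham HFD mouse. The fold was 1.73 (log2 fold change 0.79, SE 0.15, n = 5 per group, edgeR adjusted p = 0.00128).
On chow the groups overlapped: Sham Chow mice had 157.4, 197.0, 247.7, 209.3 and 218.6 CPM of Epas1. RYGB Chow mice had 367.6, 235.5, 181.0, 283.2 and 213.5 CPM, the widest spread of the 4 groups (SD 72.6 around a mean of 256.1). The log2 difference on chow was 0.31 (SE 0.15, edgeR adjusted p = 0.468). The surgery difference on HFD was 0.48 log2 units larger than that on chow (SE 0.22), which did not pass the test (edgeR adjusted p = 0.21). The diet difference of Epas1 was -0.19 in sham mice (SE 0.15, edgeR adjusted p = 0.391) and 0.29 in RYGB mice (SE 0.15, adjusted p = 0.323), neither of which passed.

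Hif1a, encoding HIF-1α, was level across the 4 groups. It lies at chr12:73901375-73947530, and its group means were 49.96 ± 1.5 CPM in Sham Chow, 49.2 ± 3.2 CPM in Sham HFD, 49.2 ± 4.8 CPM in RYGB Chow and 50.2 ± 3.5 CPM in RYGB HFD (SD, n = 5). Its 4 log2 differences between groups lay between -0.02 and 0.03, each with an SE of 0.07, and none passed the test. With library size alone as the scale, the sign turned for RYGB Chow against Sham Chow, RYGB HFD against Sham HFD and Sham HFD against Sham Chow. Exons of Hif1a share 330 bases with the antisense gene Gm15283 and 148 with Gm49321, and how counting used strand is not given in the sources used here. Per kilobase of exon, Epas1 exceeded Hif1a in every mouse, by 3.34- to 4.35-fold in Sham HFD and by 5.84- to 7.76-fold in RYGB HFD. In Sham Chow that ratio was 3.26 to 5.41 and in RYGB Chow 3.55 to 7.15, so the Sham HFD and RYGB HFD ranges were apart and the chow ranges overlapped.

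Hif3a, whose product includes forms that can restrain the other alpha subunits, was barely detected. Its counts were 0, 3, 3, 0 and 1 in Sham Chow, 1, 3, 0, 0 and 0 in Sham HFD, 9, 1, 4, 0 and 12 in RYGB Chow and 1, 1, 0, 0 and 3 in RYGB HFD. Only 3 mice, all RYGB Chow, were above the level that 3 counts give, which was 0.127 to 0.214 CPM depending on the library. Hif3a was too low for the main edgeR test, and no difference was established. For RYGB Chow against Sham Chow the exact permutation test gave p = 0.19 (0.422 after adjustment). Arnt, the beta subunit at chr3:95434388-95497240, had group means of 37.5 ± 1.7 CPM in Sham Chow, 37.7 ± 2.6 CPM in Sham HFD, 38.4 ± 3.3 CPM in RYGB Chow and 40.6 ± 2.1 CPM in RYGB HFD (SD, n = 5). The groups overlapped in every comparison, and the largest of the 4 log2 differences was 0.11 (SE 0.07, edgeR adjusted p = 0.305) for RYGB HFD against Sham HFD.

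**Figure D1:**
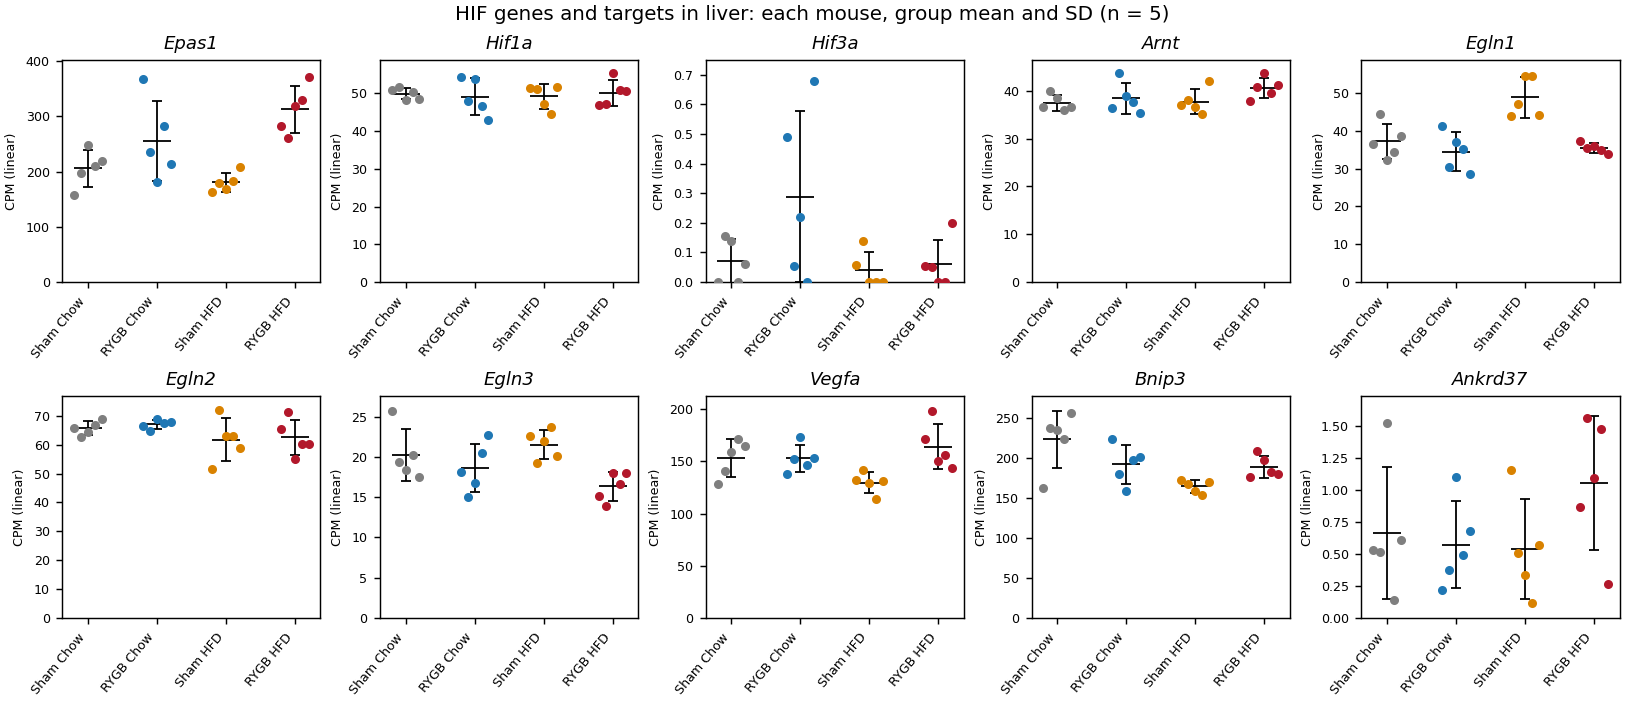
Transcript level of the 10 HIF genes in CPM (linear axis from 0) for each mouse (points), with the group mean (line) and SD (bar), n = 5 per group. The 5 RYGB HFD mice sit above the 5 Sham HFD mice for Epas1, Vegfa and Bnip3 and below them for Egln1 and Egln3, while Hif1a, Arnt and Egln2 are level and Hif3a and Ankrd37 stay below 2 CPM.

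Egln1 encodes PHD2, the main oxygen sensor among the HIF prolyl hydroxylases, and it was higher in Sham HFD than in each of the groups it was compared with. It lies at chr8:124908587-124949324, with 3594 exonic bases. Its level was 43.8, 47.0, 54.6, 54.6 and 44.0 CPM in Sham HFD and 37.2, 35.3, 35.9, 35.0 and 33.8 CPM in RYGB HFD, with no overlap. After RYGB on HFD it was at 0.726 of the sham level (log2 fold change -0.46, SE 0.10, n = 5 per group, edgeR adjusted p = 0.00304).
In Sham Chow Egln1 stood at 36.6, 44.3, 32.3, 34.3 and 38.6 CPM. It was higher in Sham HFD than in Sham Chow by 0.39 log2 units (SE 0.10, edgeR adjusted p = 0.0087), with 3 of the 5 Sham HFD mice above every Sham Chow mouse. RYGB Chow mice had 41.1, 30.4, 37.0, 35.2 and 28.6 CPM. Surgery on chow gave -0.11 (SE 0.10, adjusted p = 0.745) and diet after RYGB gave 0.04 (SE 0.10, adjusted p = 0.885), neither past the edgeR test. The interaction of surgery and diet was -0.35 (SE 0.14) and did not pass (edgeR adjusted p = 0.156).

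Egln3, which encodes PHD3, an enzyme whose own gene is a HIF target, was lower after RYGB on HFD. It lies at chr12:54178981-54203860. Sham HFD mice had 22.6, 19.2, 22.004, 23.7 and 20.1 CPM and RYGB HFD mice had 15.2, 13.95, 18.0, 16.6 and 17.9 CPM, again without overlap. The log2 fold change was -0.40 (SE 0.12, edgeR adjusted p = 0.0235), and the call was lost without Sham HFD replicate 4, RYGB HFD replicate 1 or RYGB HFD replicate 2 (adjusted p = 0.0598, 0.0519 and 0.0608). On chow the means were 20.2 ± 3.2 in sham mice and 18.6 ± 3.0 in RYGB mice (SD, n = 5), with overlapping values. Egln2, encoding PHD1, another HIF prolyl hydroxylase, lies at chr7:27158658-27166802 and stayed between group means of 61.8 ± 7.5 CPM in Sham HFD and 67.1 ± 1.5 CPM in RYGB Chow. None of its comparisons passed, and its log2 differences between groups lay between -0.10 and 0.03, each with an SE of 0.08. Its sign turned under library size alone for RYGB HFD against Sham HFD and for Sham HFD against Sham Chow.

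Vegfa, the ligand that drives the growth of blood vessels, was higher after RYGB on HFD. It lies at chr17:46016993-46032369. In Sham HFD it measured 132.1, 141.3, 129.7, 114.3 and 131.1 CPM and in RYGB HFD 171.0, 198.1, 150.2, 156.4 and 144.0 CPM. The ranges did not meet, although the lowest RYGB HFD mouse was close to the highest Sham HFD mouse. The fold was 1.26 (log2 fold change 0.34, SE 0.10, n = 5 per group, edgeR adjusted p = 0.0181). The call was lost without Sham HFD replicate 4 or RYGB HFD replicate 2 (adjusted p = 0.054 and 0.0722) and with library size as the only scaling (adjusted p = 0.128).
On chow, Vegfa was 153.0 ± 18.0 CPM in sham mice and 152.8 ± 13.1 CPM in RYGB mice (SD, n = 5), with overlapping values and a log2 difference of 0.00 (SE 0.10, edgeR adjusted p = 0.998). Sham HFD against Sham Chow gave -0.24 (SE 0.10), which did not pass (edgeR adjusted p = 0.0786), but passed when Sham Chow replicate 1, the lowest of its group, was left out (adjusted p = 0.0317).

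Bnip3, whose product marks mitochondria for removal by autophagy, was lower on HFD in sham mice. It lies at chr7:138890836-138909519, and 504 of its exonic bases, 22.3%, overlap the antisense gene Gm45507. Sham Chow mice had 163.0, 237.6, 235.3, 223.3 and 256.3 CPM, and Sham HFD mice had 172.1, 167.8, 158.5, 153.6 and 169.8 CPM. Sham Chow replicate 1 fell within the Sham HFD range, while the other 4 were above it. The log2 fold change was -0.44 (SE 0.10, edgeR adjusted p = 0.00469).
RYGB HFD mice had 175.7, 208.6, 197.5, 182.5 and 179.6 CPM of Bnip3, all above Sham HFD. That difference, 0.20 log2 units (SE 0.10), did not pass the edgeR test (adjusted p = 0.196). In RYGB Chow it was 223.8, 179.6, 159.3, 196.8 and 201.1 CPM, overlapping Sham Chow, with a log2 difference of -0.22 (SE 0.10, adjusted p = 0.458). The interaction was 0.42 (SE 0.15, edgeR adjusted p = 0.103) and passed only without Sham Chow replicate 1 (adjusted p = 0.0173). Ankrd37, a small ankyrin repeat gene induced by hypoxia, was close to the detection level, with group means of 0.665 ± 0.514 CPM in Sham Chow, 0.539 ± 0.388 CPM in Sham HFD, 0.572 ± 0.339 CPM in RYGB Chow and 1.054 ± 0.523 CPM in RYGB HFD (SD, n = 5). All of its groups overlapped, its counts ran from 2 to 33, and 349 of its exonic bases overlap Lrp2bp on the other strand.

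In RYGB HFD against Sham HFD, 2 of the 8 tested HIF genes were higher (Epas1 and Vegfa) and 2 were lower (Egln1 and Egln3). Over all tested genes 8.54% were higher and 7.9% lower in that comparison. The groups did not overlap for 5 of the 8, against 14.7% of all tested genes. The exact permutation test gave its smallest possible p, 0.00794 (two-sided, 5 against 5), to each of these 5, or 0.0635 after adjustment over 40 tests. Sham HFD against Sham Chow gave 1 higher (Egln1) and 1 lower (Bnip3) of 8, where 10.9% of all genes were higher and 10.7% lower, and no HIF gene was free of overlap, against 16.5% of all. These counts share the Sham HFD mice and are not independent.
In RYGB Chow against Sham Chow edgeR called 0 of 8, DESeq2 also called 0, and 1 gene, Bnip3, had an unadjusted p below 0.05. The background there was 0.0488% higher and 0.00814% lower, 10.8% below an unadjusted p of 0.05, and 1.33% without overlap, against 0 of 8 HIF genes. In RYGB HFD against RYGB Chow edgeR and DESeq2 called 0 of 8 and 0 had an unadjusted p below 0.05, where 1.99% of all genes were higher, 1.65% lower, 18.8% below an unadjusted p of 0.05 and 5.05% without overlap. For the interaction both tools called 0 of 8, and 4 (Epas1, Egln1, Vegfa and Bnip3) had an unadjusted p below 0.05, where 2.48% of all genes were called higher, 2.58% lower and 20.8% had an unadjusted p below 0.05. The share of calls depended on scaling: with library size alone, RYGB HFD against Sham HFD gave 542 genes higher and 1497 lower in place of 1050 and 971, Sham HFD against Sham Chow gave 2279 and 554 in place of 1337 and 1319, and the interaction gave 151 and 597 in place of 305 and 317. Library size alone moved the median log2 difference of all genes to 0.12 in Sham HFD against Sham Chow and to -0.13 for the interaction, and the other comparisons by less than 0.1.

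**Figure D2:**
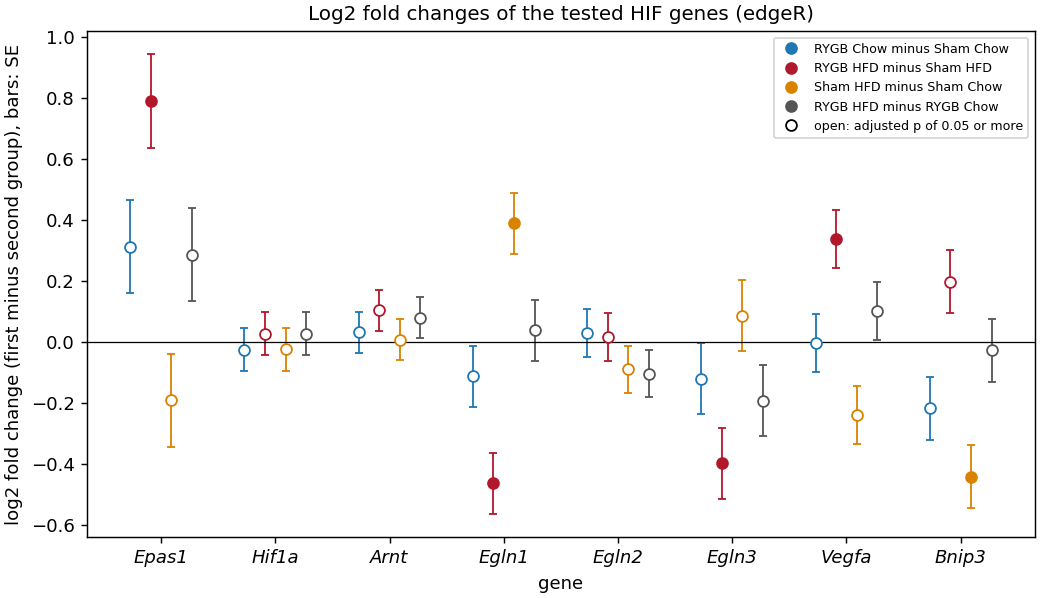
Log2 fold change (linear axis, first minus second group, bars: SE) of the 8 tested HIF genes in the 4 comparisons between groups, with filled points where the edgeR adjusted p was below 0.05. Epas1 at 0.79 and Egln1 at -0.46 stand farthest from 0 for RYGB HFD against Sham HFD, and the points of Hif1a, Arnt and Egln2 lie near 0 throughout.

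Between genes, levels were compared per kilobase of exon. Bnip3 was highest, with group means of 72.6 to 98.5 CPM per kilobase, followed by Epas1 at 32.3 to 55.9 and Vegfa at 30.3 to 38.3. In Sham HFD, Epas1 (32.3 ± 3.2) and Vegfa (30.3 ± 2.3) did not differ beyond their SD, and in Sham Chow they were 36.8 ± 5.9 and 35.7 ± 4.2. Egln2 lay at 22.1 to 23.97, above Egln1 at 9.59 to 13.6, Hif1a at 8.34 to 8.51 and Egln3 at 6.14 to 8.08 CPM per kilobase. In Sham HFD, Hif1a (8.34 ± 0.55) and Egln3 (8.08 ± 0.68) did not differ beyond their SD. Arnt lay at 4.69 to 5.08, and Ankrd37 and Hif3a stayed below 1.

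Markers of other liver cells moved in the same comparisons. Of 7 stellate cell and fibroblast markers, 7 were higher in Sham HFD than in Sham Chow and 4 were lower after RYGB on HFD, with summed levels of 139 to 229 CPM in Sham Chow, 303 to 371 in Sham HFD and 197 to 297 in RYGB HFD. Of 5 hepatocyte markers, 3 were higher and 1 lower after RYGB on HFD. Their sum was 65462 to 78287 CPM in Sham HFD and 92069 to 111344 CPM in RYGB HFD, without overlap. On chow it was 75993 to 96253 CPM in sham mice and 69003 to 116169 CPM in RYGB mice. Of 6 Kupffer cell markers, 3 were higher in Sham HFD than in Sham Chow and 0 differed between RYGB HFD and Sham HFD (edgeR, with 0 at an unadjusted p below 0.05 and 0 by DESeq2). For RYGB Chow against Sham Chow edgeR called 0 of them and DESeq2 called 1. There all 6 had an unadjusted edgeR p below 0.05, as did 10.8% of all tested genes, with a median log2 difference of 0.86. Their sum was 91.7 to 246 CPM in Sham Chow and 189 to 464 CPM in RYGB Chow. The part of these cells in the differences of Epas1, Egln1, Egln3, Vegfa and Bnip3 was not tested.
For endothelial cells, which express Epas1, edgeR called 0 of 8 markers in any of the 5 comparisons and so did DESeq2, with 1 of 8 at an unadjusted p below 0.05 in RYGB HFD against Sham HFD and a median log2 difference of -0.15. Their summed level was 287 to 440 CPM in Sham HFD and 166 to 424 CPM in RYGB HFD. In RYGB HFD replicates 1 to 5 the sum was 396.4, 211.6, 165.6, 383.8 and 423.7 CPM, and Epas1 was above every Sham HFD mouse in each of them. Which cells carried the Epas1 RNA was not tested.

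**Figure D3:**
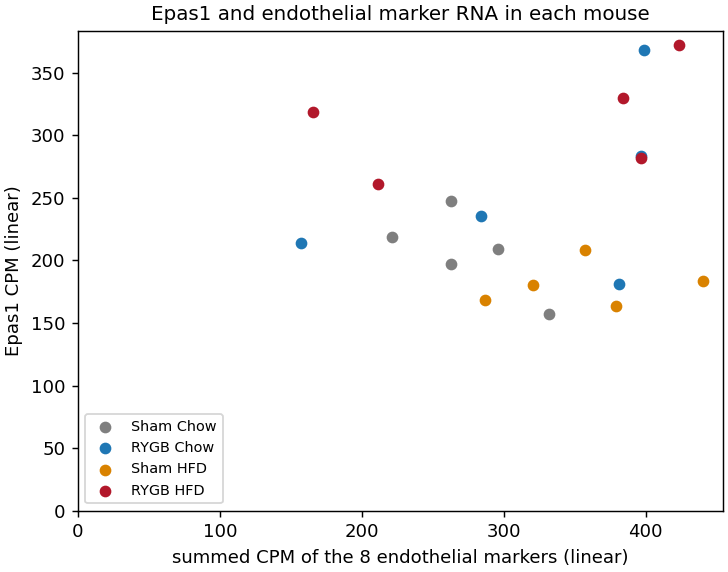
Epas1 level against the summed level of 8 sinusoidal endothelial markers, both in CPM on linear axes from 0, 1 point per mouse and 1 colour per group. RYGB HFD mice lie above all Sham HFD mice in Epas1 at endothelial sums from 166 to 424 CPM.

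Beyond these genes, 71 others of the HIF pathway were listed in 5 groups, and 59 of them were tested. After RYGB on HFD 7 were higher and 7 lower than in Sham HFD, and the groups did not overlap for 13, where all tested genes gave 8.54%, 7.9% and 14.7%, with a median log2 difference of -0.05 beside 0.01 for all tested genes. In Sham HFD against Sham Chow 8 were higher and 6 lower, where 10.9% and 10.7% of all tested genes were, with a median of 0.03 beside 0.00. In RYGB HFD against RYGB Chow 2 were higher and 2 lower, beside 1.99% and 1.65% of all tested genes, and the interaction gave 1 higher and 4 lower, beside 2.48% and 2.58%. In RYGB Chow against Sham Chow edgeR called 0 of the 59, DESeq2 called 2, and 7 had an unadjusted p below 0.05, as did 10.8% of all tested genes.

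Among 11 tested genes of HIF stability control and its cofactors, 2 were higher and 0 lower after RYGB on HFD, where 8.54% of all tested genes were higher and 7.9% lower. These were Cul2, the cullin of the VHL ligase complex (log2 fold change 0.24, SE 0.07, edgeR adjusted p = 0.0256), and Crebbp, a coactivator of HIF (0.38, SE 0.10, adjusted p = 0.0111). In Sham HFD against Sham Chow 2 were lower, where 10.7% of all tested genes were, Cul2 (-0.29, SE 0.07, edgeR adjusted p = 0.00714) and, named after its values were seen, Elob, an elongin of the same complex (-0.26, SE 0.09, adjusted p = 0.0433). The groups did not overlap for Cul2 in either comparison, but both of its calls and that of Crebbp were lost with library size alone (adjusted p = 0.319, 0.217 and 0.0877), as was that of Elob (0.255). Without the filter on low values, Cul2 after RYGB on HFD and Elob were also not called (adjusted p = 0.111 and 0.0767), nor was Elob with a filter of 5 CPM (0.059) or with the endothelial marker level as a covariate (0.104), an alternative chosen after seeing the data. Leaving out any of 6 mice ended the call of Cul2 after RYGB on HFD (adjusted p up to 0.0698), and any of 10 mice that of Elob (up to 0.114). The median log2 difference of the list was 0.08 in RYGB HFD against Sham HFD and -0.14 in Sham HFD against Sham Chow.

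Of 15 tested glycolytic targets, 0 were higher and 5 lower after RYGB on HFD, and 5 were higher and 0 lower in Sham HFD than in Sham Chow. Over all tested genes the shares were 8.54% higher and 7.9% lower in the first comparison and 10.9% and 10.7% in the second. Eno1, an enolase, had 654.3, 654.6, 685.0, 558.3 and 612.6 CPM in Sham HFD and 387.9, 410.0, 430.2, 408.1 and 408.4 CPM in RYGB HFD. The ranges were far apart, with a log2 fold change of -0.63 (SE 0.09, edgeR adjusted p = 5.25e-05). In Sham Chow it measured 447.5, 492.6, 495.1, 570.6 and 509.9 CPM, below Sham HFD by 0.33 log2 units (SE 0.09, edgeR adjusted p = 0.0101).
Pgam1, the next enzyme upstream in glycolysis, fell by 0.44 log2 units with RYGB on HFD (SE 0.08, edgeR adjusted p = 0.000473). Pdk1, a kinase that holds pyruvate back from mitochondria, fell by 0.55 (SE 0.12, adjusted p = 0.00327). Hk2, a hexokinase scarce in normal liver, had 2.78, 4.67, 6.08, 6.65 and 6.88 CPM in Sham HFD, above every mouse of the other groups, whose levels were 0.162 to 2.66 CPM. Its log2 fold change was 2.71 in Sham HFD against Sham Chow (SE 0.49, edgeR adjusted p = 0.000597) and -1.53 in RYGB HFD against Sham HFD (SE 0.45, adjusted p = 0.0226), from counts of 4 to 157 in the groups compared. Pgk1, named after its values were seen, was also lower in RYGB HFD (-0.30, SE 0.10, edgeR adjusted p = 0.043). Without Sham HFD replicate 5 or RYGB HFD replicate 3 the call of Hk2 after RYGB was lost (adjusted p = 0.0538 and 0.0556), and that of Pgk1 was lost without any of 8 mice (up to 0.0994) and without the filter (0.0712).
Ldha, which makes lactate, was also higher in Sham HFD than in Sham Chow, by 0.61 log2 units (SE 0.13, edgeR adjusted p = 0.00281). So were Pkm, a pyruvate kinase (0.80, SE 0.22, adjusted p = 0.0152) and, named after its values were seen, Pfkl, the liver phosphofructokinase (0.29, SE 0.10, adjusted p = 0.048). Ldha, Pkm and Pfkl were not called in RYGB HFD against Sham HFD. Means there were 922.0 against 965.2 CPM for Ldha and 24.8 against 23.9 CPM for Pkm. The call of Pkm was lost without Sham HFD replicate 4 (adjusted p = 0.05) and that of Pfkl without any of 15 mice (up to 0.133), without the filter (0.107), with only the 2 groups fitted (0.0705) and with the endothelial covariate (0.068). Gpi1 was lower in RYGB HFD than in RYGB Chow (-0.45, SE 0.12, edgeR adjusted p = 0.0446). Gapdh varied from 7.25 to 142 CPM between mice and passed no comparison in the main fit. With only the 2 groups fitted, Gapdh was called lower in Sham HFD than in Sham Chow (-1.92, SE 0.60, edgeR adjusted p = 0.0367). It has many near-identical copies in the mouse genome, so its counts are uncertain. The interaction passed for Eno1 (-0.59, SE 0.12, edgeR adjusted p = 0.00847) and Gpi1 (-0.62, SE 0.17, adjusted p = 0.0417). It did not pass for Pgam1 (edgeR adjusted p = 0.0517) or Hk2 (-2.24, SE 0.68, edgeR adjusted p = 0.06). DESeq2 called both as negative (adjusted p = 0.0182 and 0.0176). The calls of Gpi1 were lost without any of 11 mice for diet after RYGB (adjusted p up to 0.107) and any of 13 for the interaction (up to 0.0781), and that for diet after RYGB also with library size alone (0.0683) or only the 2 groups (0.133).

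**Figure D4:**
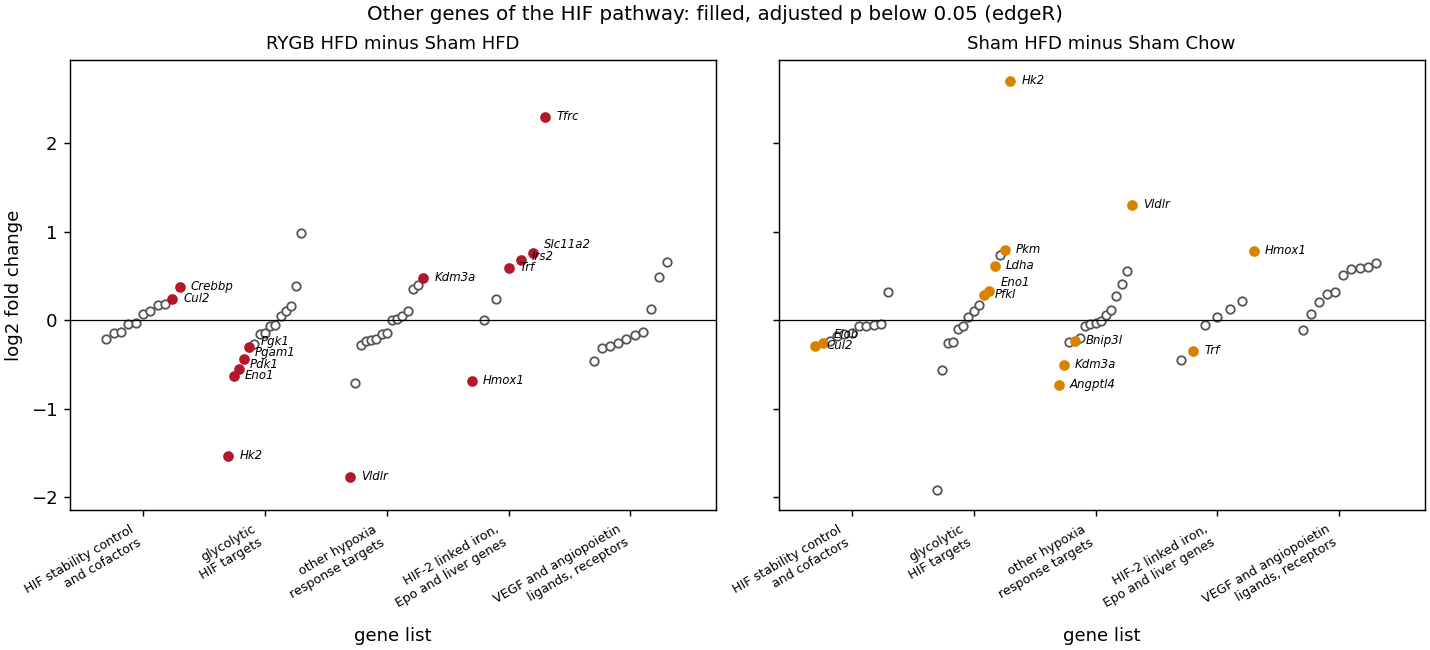
Log2 fold change (linear axis) of the tested pathway genes reported here, in 5 lists, for RYGB HFD against Sham HFD (left) and Sham HFD against Sham Chow (right), filled and named where the edgeR adjusted p was below 0.05. Called glycolytic targets lie below 0 on the left and above 0 on the right, but only Eno1 and Hk2 are called on both sides. Tfrc at 2.30 is the highest point on the left.

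Among 15 tested genes of other hypoxia responses, 1 was higher and 1 lower after RYGB on HFD, and 1 was higher and 3 lower in Sham HFD than in Sham Chow, where the shares of all tested genes were 8.54%, 7.9%, 10.9% and 10.7%. After RYGB on HFD the higher gene was Kdm3a, a histone demethylase induced by HIF (0.47, SE 0.15, edgeR adjusted p = 0.0401), and the lower gene was Vldlr, a receptor that takes up lipoproteins. Vldlr measured 8.46, 10.96, 15.4, 18.8 and 15.0 CPM in Sham HFD and 4.03, 2.92, 5.13, 5.44 and 2.53 CPM in RYGB HFD. The groups did not overlap, and the log2 fold change was -1.77 (SE 0.27, edgeR adjusted p = 0.000154). In Sham HFD against Sham Chow Vldlr was higher (1.30, SE 0.27, adjusted p = 0.0018), and Angptl4, an inhibitor of lipoprotein lipase (-0.73, SE 0.15, adjusted p = 0.00182), Kdm3a (-0.51, SE 0.15, adjusted p = 0.0234) and Bnip3l, the relative of Bnip3 (-0.24, SE 0.06, adjusted p = 0.0105), were lower. Bnip3l was also lower in RYGB HFD than in RYGB Chow (-0.25, SE 0.06, edgeR adjusted p = 0.0289). The interaction passed for Vldlr (-1.91, SE 0.38, edgeR adjusted p = 0.00704). The calls of Kdm3a were lost with library size alone (adjusted p = 0.113 and 0.0876), as was that of Bnip3l in sham mice (adjusted p = 0.29). Without any of 8 mice Kdm3a was not called after RYGB on HFD (adjusted p up to 0.138), nor without any of 3 for diet in sham mice (up to 0.0716), and Bnip3l was not called without any of 5 for diet after RYGB (up to 0.0695), without the filter (0.0959) or with only the 2 groups (0.0956). The call of Kdm3a after RYGB on HFD was also lost with a replicate block (adjusted p = 0.0526), without the filter (0.0527) and with only the 2 groups (0.058).

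Among the 8 tested genes linked to HIF-2, iron and erythropoietin, 4 were higher and 1 lower after RYGB on HFD, where 8.54% of all tested genes were higher and 7.9% lower. Tfrc, the transferrin receptor through which cells take up iron, had 13.7, 13.8, 13.98, 15.5 and 16.4 CPM in Sham HFD and 61.3, 18.0, 92.9, 104.5 and 83.5 CPM in RYGB HFD. RYGB HFD replicate 2 was barely above the sham mice and the other 4 were far above them. The log2 fold change was 2.30 (SE 0.32, edgeR adjusted p = 6.29e-05).
The other 3 that rose were Slc11a2, the iron transporter DMT1 (0.77, SE 0.14, edgeR adjusted p = 0.000659), Trf, which encodes transferrin (0.59, SE 0.09, adjusted p = 0.000146), and Irs2, an insulin signalling adaptor (0.68, SE 0.20, adjusted p = 0.0206). Hmox1, which releases iron from heme, was lower (-0.69, SE 0.19, edgeR adjusted p = 0.0145). In Sham HFD against Sham Chow, Hmox1 was higher (0.78, SE 0.19, adjusted p = 0.00573) and Trf lower (-0.35, SE 0.09, adjusted p = 0.00909). The call of Irs2 was lost without any of 5 mice (adjusted p up to 0.0631) and with library size alone (0.0736), and that of Hmox1 after RYGB without Sham HFD replicate 5 (0.0509).
On chow Tfrc had 17.5, 12.6, 16.003, 10.4 and 19.2 CPM in sham mice and 51.7, 46.6, 39.2, 48.4 and 20.7 CPM in RYGB mice, with no overlap. The log2 difference of 1.44 (SE 0.32) did not pass (edgeR adjusted p = 0.097). DESeq2 called it (adjusted p = 0.0132), and edgeR called it without RYGB HFD replicate 2 (adjusted p = 0.0102) or RYGB Chow replicate 5 (adjusted p = 0.0421). Slc11a2 on chow, with means of 32.97 CPM in sham mice and 47.3 CPM in RYGB mice and overlapping groups, gave a log2 difference of 0.52 (SE 0.14) that edgeR did not call (adjusted p = 0.173) and DESeq2 did (adjusted p = 0.0487). Trf had 861.6, 875.9, 1068.8, 1024.7 and 1079.4 CPM in Sham Chow, 844.2, 762.5, 821.8, 698.8 and 734.9 in Sham HFD and 1146.1, 1062.8, 1335.0, 1183.8 and 1068.6 in RYGB HFD. The interaction passed for Trf (0.75, SE 0.13, edgeR adjusted p = 0.00201) and for Hmox1 (-1.19, SE 0.27, adjusted p = 0.0129). In RYGB HFD against RYGB Chow, Trf (0.41, SE 0.09, adjusted p = 0.0143) and Cp, the copper ferroxidase ceruloplasmin (0.38, SE 0.09, adjusted p = 0.028), were higher, and the call of Cp was lost without any of 3 mice (adjusted p up to 0.0818), without the filter (0.066) and with only the 2 groups (0.0908), as was that of Trf with only the 2 groups (0.0565). Epo, the red cell hormone, had 0 counts in all 20 mice, so that only a level above 0.127 to 0.214 CPM, worth 3 counts, could have been seen in a mouse.

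**Figure D5:**
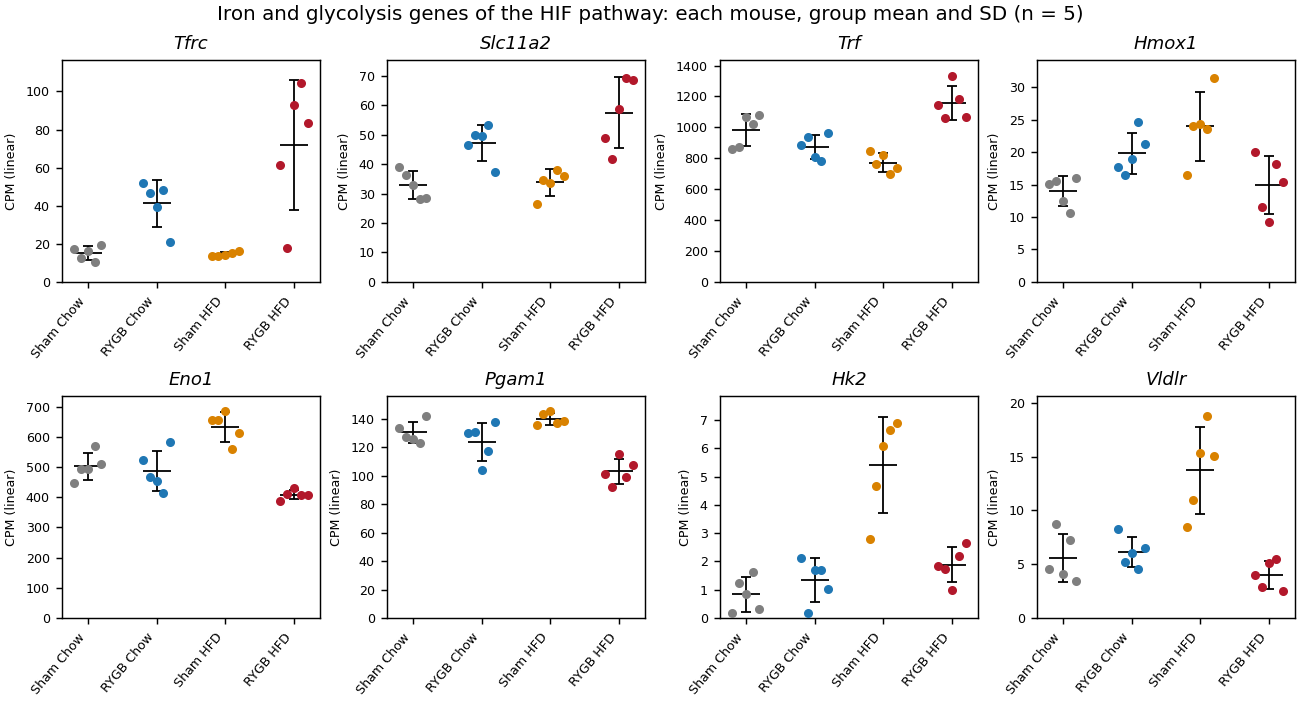
Level in CPM (linear axis from 0) of 4 iron genes and 4 glycolytic or lipid genes of the HIF pathway for each mouse (points), with group mean (line) and SD (bar), n = 5 per group. Tfrc and Slc11a2 are high in RYGB HFD, with RYGB HFD replicate 2 at 18.0 CPM of Tfrc, and Eno1, Hk2 and Vldlr are highest in Sham HFD.

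Of 10 tested VEGF and angiopoietin ligands and receptors, the main edgeR fit called 0 in any of the 5 comparisons. DESeq2 called 1, for RYGB HFD against Sham HFD, where 1 had an unadjusted edgeR p below 0.05. It was Nrp1, a co-receptor for VEGF named after its values were seen, with a mean of 103.4 CPM against 73.5 CPM (log2 difference 0.49, SE 0.18, edgeR adjusted p = 0.0735, DESeq2 adjusted p = 0.049). The list's median log2 difference was -0.19 there and 0.41 in Sham HFD against Sham Chow. Some other edgeR fits did call genes of this list, named here after their values were seen. With only the 2 groups fitted, Nrp1 was higher after RYGB on HFD (edgeR adjusted p = 0.0128). In Sham HFD against Sham Chow that fit called the receptors Flt4 and Tie1 higher (edgeR adjusted p = 0.0052 and 0.0102). With the endothelial covariate, Nrp1 and the receptor Flt1 were higher after RYGB on HFD (edgeR adjusted p = 0.0299 and 0.000981).

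Over the 20 mice, the 5 tested genes whose log2 level was most like that of Epas1 were Ulk1 (Pearson r = 0.81), Mug1 (0.80), Arrdc2 (0.80), Tfrc (0.80) and Mast3 (0.77). Among the HIF genes, r with Epas1 was -0.56 for Egln3, -0.45 for Egln1, 0.39 for Arnt, 0.36 for Bnip3, 0.32 for Vegfa, 0.16 for Hif1a and -0.06 for Egln2. These values describe mice that share 4 groups and their differences, so no p is given.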

How the data were processed

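Poly(A) RNA of 1 liver sample per mouse was sequenced from strand-marked libraries. Per the submitters' processing notes, the authors trimmed reads with Trimmomatic 0.36, aligned them to mm10 with HISAT2 2.1.0 and deposited raw read counts per gene from featureCounts 1.5.0-p3; the strand setting of counting is not given in the sources used here, and no batch is labelled. All 20 columns were matched to mice by their labels.

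The main test was edgeR 4.0.16 (R 4.3.3): genes at 2 CPM or more in at least 3 mice, TMM scaling, 1 model of the 4 groups, quasi-likelihood F test and Benjamini-Hochberg adjustment over 12289 genes, called below 0.05. CPM values use TMM library sizes. Single genes were also compared by exact permutation of log2(CPM + 0.5). The script was tested on simulated data. DESeq2 1.42.0 and other scalings, filters and left-out mice were alternatives. The edgeR p-values set a difference against a spread between mice that was estimated over all 4 groups, with 5 mice per group. Those of the exact permutation use only the mice of the groups compared.

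The HIF genes and the gene lists were chosen with earlier results of these data known. Other pathway genes are named if among the 5 smallest p-values of a comparison, or up to 2 more per list passing most often. Coordinates and exon lengths come from GENCODE M21 (GRCm38), and promoters from RefSeq (GRCm38.p6), in which 9 of 10 genes matched. A listed pathway gene that is included in the counts is not reported here by name or value.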

Additional observations from a re-analysis of the deposited data

Results flagged for a closer look

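A few values stood apart from the other mice of their group by Dixon's test, in which chance alone flags about 1 in 20 groups; 5 of 116 combinations of gene and group did so. They were Hif3a in RYGB HFD replicate 5 at 0.199 CPM, Bnip3l in RYGB HFD replicate 5 at 92.9 CPM, Irs2 in RYGB Chow replicate 3 at 51.8 CPM, Ldha in Sham Chow replicate 2 at 866 CPM and Pdk1 in Sham Chow replicate 4 at 152.7 CPM.

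The surgery difference on HFD departed from that on chow, by edgeR's interaction test, for 5 named pathway genes and for 0 of the 8 tested HIF genes (4 at an unadjusted p below 0.05, and 0 by DESeq2). On the log2 scale it was more negative on HFD for Vldlr (-1.91), Hmox1 (-1.19), Gpi1 (-0.62) and Eno1 (-0.59) and more positive for Trf (0.75).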

How the results depend on the processing

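The 6 calls of HIF genes kept their direction in all 28 other fits of each. Epas1 and Egln1 in RYGB HFD against Sham HFD, and Egln1 and Bnip3 in Sham HFD against Sham Chow, passed in all of them, while Egln3 and Vegfa were lost in 3 each. These include the endothelial covariate, chosen after seeing the data, with which the log2 differences after RYGB on HFD were 0.84 for Epas1, -0.43 for Egln1, -0.40 for Egln3 and 0.32 for Vegfa. Leaving out 1 mouse gave 2 to 4 called HIF genes in RYGB HFD against Sham HFD. It gave 2 to 3 in Sham HFD against Sham Chow and 0 to 1 for the interaction. Called pathway genes were then 0 to 1 in RYGB Chow against Sham Chow and 9 to 15 in RYGB HFD against Sham HFD. They were 10 to 18 in Sham HFD against Sham Chow, 2 to 6 in RYGB HFD against RYGB Chow and 4 to 8 for the interaction. In RYGB HFD against Sham HFD the count of 2 HIF genes came without Sham HFD replicate 4 or RYGB HFD replicate 2. That of 9 pathway genes came without Sham HFD replicate 5.

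Pathway genes called in RYGB Chow against Sham Chow were 2 with DESeq2 and 1 without the filter, in place of 0. In RYGB HFD against RYGB Chow they were 7 with DESeq2, 2 without the filter and 0 with only the 2 groups, in place of 4, and for the interaction 8 with DESeq2 in place of 5. The cause was not tested.

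Signs turned only for log2 differences that passed no test. With library size alone these were Hif1a on chow (0.029), on HFD (-0.066), by diet in sham mice (0.10) and in the interaction (-0.10), Arnt in the interaction (-0.0697), Egln2 on HFD (-0.074) and by diet in sham mice (0.041), and Vegfa on chow (0.057). The sign of Arnt by diet in sham mice turned without the filter (-0.0011), and at 5 CPM that of Egln2 on HFD (-0.00011) and of Vegfa on chow (0.0024), which also turned with the endothelial covariate (0.012). Leaving out 1 mouse gave Hif1a -0.061 to 0.022 on chow, -0.0103 to 0.051 on HFD, -0.041 to 0.011 by diet in sham mice and -0.02005 to 0.067 by diet after RYGB. It gave Arnt -0.019 to 0.063 on chow and -0.033 to 0.033 by diet in sham mice, Egln1 -0.025 to 0.11 by diet after RYGB, Egln2 -0.049 to 0.079 on HFD and -0.0799 to 0.048 in the interaction, Vegfa -0.058 to 0.042 on chow and Bnip3 -0.08997 to 0.035 by diet after RYGB.

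Replicate numbers are shared between groups. Of 30 pairs of groups and numbers, 5 correlated above 0.1 (r from -0.26 to 0.17), and 3 of 20 mice were closest to their own number. No pairing by number was seen, but such correlations cannot exclude a weak one. With a replicate block edgeR called 4 HIF genes in RYGB HFD against Sham HFD, 2 in Sham HFD against Sham Chow and 0 in each other comparison, and 14, 15, 4, 5 and 0 pathway genes in RYGB HFD against Sham HFD, Sham HFD against Sham Chow, RYGB HFD against RYGB Chow, the interaction and RYGB Chow against Sham Chow.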
